A study of Mus musculus with 16 samples.

Results

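Foxa2 binding was followed from day 2 to day 30 after mouse embryonic fibroblasts had been infected with Foxa2. The regions described are the peaks of the Foxa2 day 2 list and of the Foxa2 day 30 list, 23 and 174 in number, together 197 of the 4839 peaks deposited for the series. Peak positions alone set the classes. A day 2 peak that shared at least 1 bp with a day 30 peak was called kept, and the other day 2 peaks were called lost. A day 30 peak that shared no base with a day 2 peak was called gained.

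The fibroblasts (MEFs) are connective tissue cells of the C57BL/6 strain, grown from embryos at 13.5 days post coitum. Each culture received 1 of 4 factors, Foxa1, Foxa2, Foxa3 or Hnf4alpha (Hnf4a), and chromatin was precipitated with an antibody to that same factor on day 2 or day 30. Each factor and day had 1 ChIP sample and 1 input sample, and the inputs carried the same infection as the ChIP sample they accompany. By their labels, the day 2 and day 30 Foxa2 samples shared strain, cell type, infection and antibody, and differed in the day. The names of the deposited Foxa2 lists also differ in a further mark whose meaning is not given. Whether the 2 days came from one culture is not given, nor is the vector or the share of cells that took up the factor. In a bulk ChIP, a larger share of cells with the factor and more factor at a site in each cell cannot be told apart. With 1 sample per day there is no spread between samples, so no test between days was made. The exact Clopper-Pearson 95% intervals given here cover counting error only. Peak lists hold no expression values, so the labelled cell type was not checked against markers.

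Foxa2 is a forkhead transcription factor of the definitive endoderm, liver, pancreas and lung. Its winged-helix DNA-binding domain is closely related to those of Foxa1 and Foxa3, and the Foxa proteins recognise the same short DNA motif. Foxa proteins are known as pioneer factors, which can reach their sites on nucleosomal DNA before other regulators bind. Hnf4a is a nuclear receptor of hepatocytes, and together with a Foxa protein it has been used to turn fibroblasts into hepatocyte-like cells.

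Positions are on the mouse build mm9, counted from 1. Gene positions and genome sequence of mm9 were not used here, so the regions carry no gene name, exon or intron, and no bases are shown. The score of a peak is the authors' deposited value, read as −log10 of a p-value. Its size can be followed in the lists themselves. In the day 2 list, 15 of 23 scores equalled, within 2e-05, the Poisson probability of a whole number of fragments or more at 1 background rate of 0.659 fragments. In the day 30 list, 93 of 174 scores did so at a rate of 0.635. Counting each distinct score once, 7 of 14 matched on day 2 and 12 of 62 on day 30. The commonest day 2 score, 8.63 at 6 peaks, is then that of 10 or more fragments, and the commonest day 30 score, 7.58 at 37 peaks, that of 9 or more. The peaks that could be read in this way rest on few fragments. Their number ran from 7 to 22 on day 2 with a median of 10, and from 7 to 27 on day 30 with a median of 9. Scores rank the peaks within a list, and between lists they show no change in binding, since the total depth is unknown.

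Of the 23 early peaks, 11 were kept (47.8%, interval 26.8 to 69.4%) and 12 were lost (52.2%). Of the 174 late peaks, 163 were gained (93.7%, 89.0 to 96.8%) and 11 had been listed on day 2 (6.32%, 3.20 to 11.0%). Day 30 thus held 7.57 times as many peaks as day 2, with a counting interval of 4.88 to 12.3. Among peaks with a score of at least 10 the ratio was 13.5, from 54 against 4 peaks (4.98 to 51.3). This threshold is not the same fragment number on both days. By the reading above, 11 or more fragments score 9.85 on day 2, below it, and 10.03 on day 30, above it. With only the 23 highest-scoring day 30 peaks, 5 of the 23 early peaks were kept (21.7%). The kept regions paired off, each day 2 peak with 1 day 30 peak. The gained peaks lay far from early ones. Apart from 1 peak at a distance of 5 bp, the closest gained peak was 203 kb from a day 2 peak, and 43 lay on chromosomes without any day 2 peak (9, 12, 15, 17, 18, 19 and X). Late peaks were found on 20 chromosomes and early peaks on 13.

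The 11 kept regions were all Foxa1 sites. Every kept peak of either day overlapped a Foxa1 day 30 peak (11 of 11, 71.5 to 100%), and 6 of 11 also overlapped a Foxa1 day 2 peak. Of all day 2 peaks, 78.3% lay in a Foxa1 list of either day, and of all day 30 peaks 89.7%. Foxa3 was listed at 4 of the 11 kept day 2 peaks, where 30.4% of the whole day 2 list held it. Hnf4a was listed at none of the 11, and at 0% of the day 2 list.

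On chromosome 13, chr13:99584999-99585180 had the highest Foxa2 score of day 30, 33.6, which is that of 27 or more fragments. The day 2 peak within it, chr13:99585041-99585159, scored 9.85 and was 119 bp wide against 182 bp on day 30. Foxa1 was listed there on both days, with scores of 18.2 and 46.6, and Foxa3 on day 30 with 9.80. It was the only region of the day 30 list with a score above 21.5.

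On chromosome 10, chr10:86308098-86308568 had the highest Foxa2 score of day 2, 25.3, that of 22 or more fragments, and was the widest early peak at 471 bp. On day 30 it was listed at chr10:86308139-86308503 with a score of 21.5, the second highest of that list, and a width of 365 bp. Both peaks lie inside a Foxa1 day 30 peak of 1934 bp with a score of 78.3. This was the only region among the 2 highest scores of both Foxa2 lists.

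A second region on the same chromosome, chr10:120284484-120284565, scored 9.85 on day 2 and 11.3 on day 30. Foxa1 was listed there on both days (21.3 and 40.7), and Foxa3 on day 30 (16.5). On chromosome 4, chr4:41577311-41577436 scored 8.0 on day 2 and 12.5 on day 30, and Foxa1 (14.1 and 54.8) and Foxa3 (5.28 and 25.7) were listed on both days. These 2 regions, with those on chromosome 13 and on chromosome 10 above, are the 4 kept regions shared by all 3 Foxa proteins.

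Foxa1 without Foxa3 was found at the remaining 7 kept regions. On chr1:36568530-36568596 the Foxa2 scores were 8.63 and 19.6, and on chr11:51669852-51669997 they were 8.63 and 7.91. These 2 were listed for Foxa1 on both days, the first with only 5.84 on day 2. At the other 5 regions Foxa1 was listed on day 30 only, so that Foxa2 was listed at the earlier day and Foxa1 was not. Their day 2 peaks were chr2:152223840-152223918 (9.08, then 16.2 on day 30), chr5:75440508-75440571 (8.63, then 13.7), chr14:103498152-103498264 (11.1, then 11.3), chr16:30064229-30064285 (8.0, then 10.3) and chr7:107451103-107451159 (7.45, then 10). The Foxa1 day 30 scores at these 5 ran from 21.1 to 34.1.

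By definition the paired peaks overlap, so the closeness of their centres follows in part from the rule. Centres of the 11 pairs were 1 to 69.5 bp apart, with a median of 16 bp, and the pairs shared 17 to 365 bp, with a median of 62 bp. In 8 of 11 pairs the day 30 peak was the wider one. The pair on chromosome 16 shared the fewest bases, 17 bp of a 57 bp day 2 peak.

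**Figure D1:**
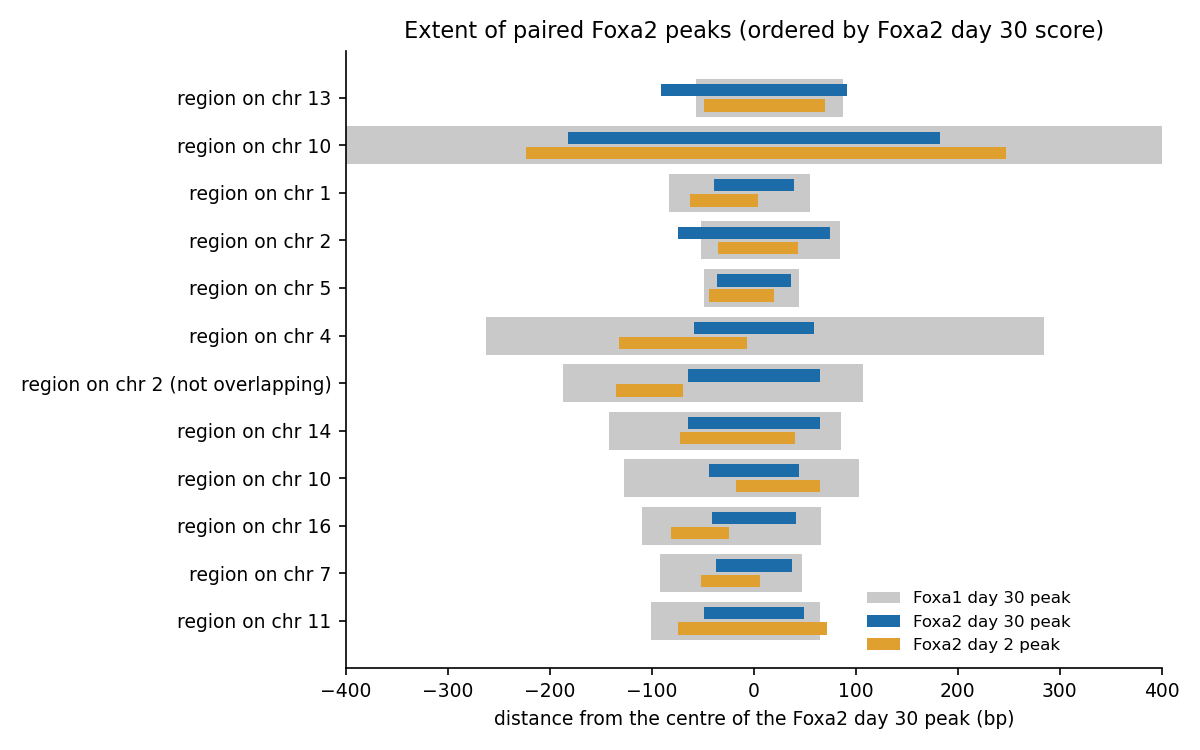
Extent of the 11 kept pairs and of 1 pair that did not overlap, in bp from the centre of the Foxa2 day 30 peak, with Foxa2 day 2 in orange, Foxa2 day 30 in blue and the Foxa1 day 30 peak in grey. The grey bar of the upper chromosome 10 region is cut off at both edges of the plot (its full width is 1934 bp), and the pair marked as not overlapping is separated by 5 bp.

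The 12 lost peaks were divided between Foxa1 sites and peaks in no other list. Of these, 7 overlapped a Foxa1 peak (58.3%, 27.7 to 84.8%), 3 of them on both days and 4 on day 30 only. The other 5 were in no other list at all (41.7%, 15.2 to 72.3%), against 21.7% of the whole day 2 list. Of these 5, 2 had a Foxa1 peak within 1 kb. The share in a Foxa1 list was thus 58.3% for lost and 100% for kept peaks. Their intervals overlap between 71.5% and 84.8%, and peaks of 1 sample are not replicates, so these shares were not tested against each other. With each Foxa1 list reduced by score to 23 peaks, 4 of 11 kept (36.4%) and 0 of 12 lost peaks lay in one.

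Foxa1 was listed on day 30 at each of those 7 sites, where Foxa2 was not. Foxa1 was listed on both days at chr5:91160771-91160828 (Foxa2 day 2 score 7.45), chr13:35561537-35561593 (6.95) and chr10:38704317-38704417 (6.31). The Foxa1 day 30 scores there were 17.9, 12.2 and 12.7, and the last 2 were also in the Foxa3 day 30 list. Foxa1 was listed on day 30 only at chr11:20979597-20979704 (Foxa2 score 10.2), chr1:145794215-145794271 (8.63), chr8:93751382-93751439 (8.63) and chr2:110007743-110007807 (8.63). The last of these is a near miss. A Foxa2 day 30 peak with a score of 12.4 begins 5 bp beyond it, and a single Foxa1 day 30 peak of 294 bp and Foxa3 on day 30 (8.45) were listed over it. Counted as kept, it would make 12 of 23 (52.2%). No other lost peak had a Foxa2 day 30 peak within 810025 bp.

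The 5 lost peaks outside the Foxa1 lists include the second-highest score of day 2. That peak, chr6:10097851-10097912, scored 21.4 at a width of 62 bp, and the nearest Foxa1 peak was 762387 bp away. Only the wide chromosome 10 region scored higher, and the next peak of the list scored 11.1. The remaining 4 scored lower: 9.85 at chr3:136265033-136265135, 6.45 at chr16:57391620-57391686, 5.95 at chr6:5446531-5446607 and 5.22 at chr2:74490656-74490712. A gap of 30 bp separates the peak on chromosome 3 from a Foxa1 day 30 peak, and one of 75 bp separates the peak on chromosome 2 from a Foxa1 day 2 peak. The other 3 were at least 114668 bp from Foxa1.

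**Figure D2:**
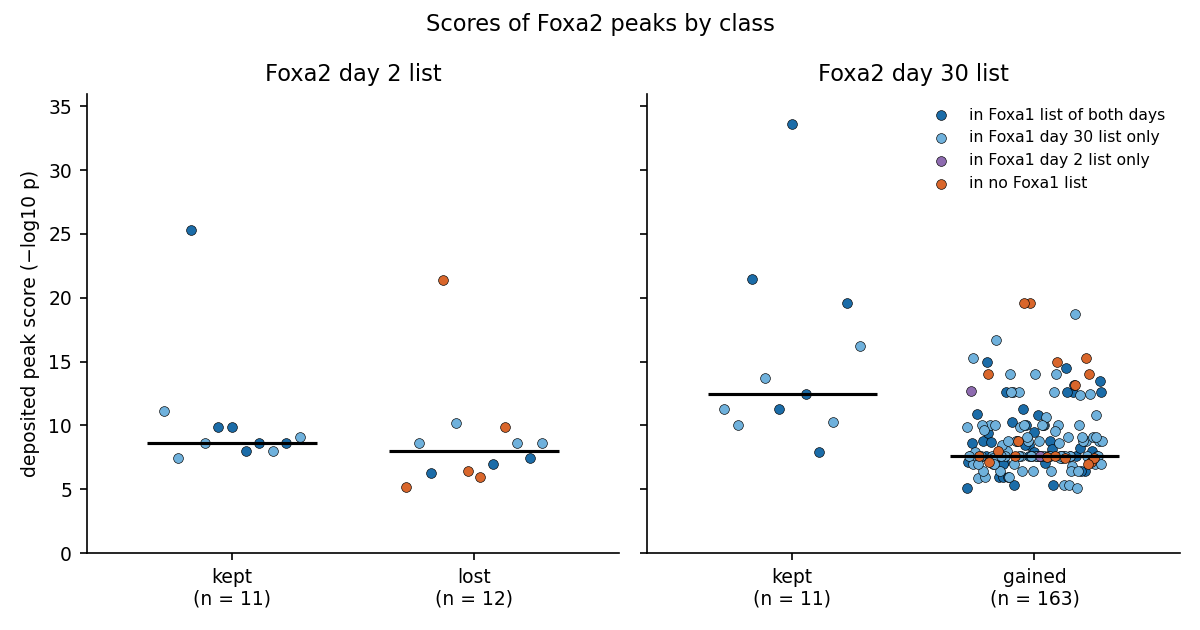
Deposited scores (−log10 p) of every Foxa2 peak by class, with the day 2 list on the left and the day 30 list on the right, coloured by the Foxa1 lists that hold the peak; the horizontal lines are medians. Kept and lost day 2 peaks cover overlapping ranges (medians 8.63 and 8.04), and only lost peaks scored below 7.45. Kept day 30 peaks have a median of 12.5 and gained peaks one of 7.58, with overlapping ranges.

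On day 2 the scores of the classes overlapped, though only lost peaks scored below 7.45. Kept peaks scored from 7.45 to 25.3 with a median of 8.63, and lost peaks from 5.22 to 21.4 with a median of 8.04. The median width was 82 bp for kept and 63.5 bp for lost day 2 peaks, again with overlapping ranges. On day 30 the kept regions lay towards the top of the list. Their scores ran from 7.91 to 33.6 with a median of 12.5, against 5.08 to 19.6 with a median of 7.58 for gained peaks. Of the 54 day 30 peaks with a score of at least 10, 10 were kept (18.5%, 9.25 to 31.4%), against 1 of the 120 with a lower score (0.833%, 0.0211 to 4.56%). Of the 10 highest-scoring day 30 peaks, 4 were kept.

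The gained peaks were mostly Foxa1 sites as well. Of the 163, 145 overlapped a Foxa1 peak of either day (89.0%, 83.1 to 93.3%), a share close to the 89.7% of the whole day 30 list. At 97 of the gained sites (59.5%, 51.6 to 67.1%) Foxa1 was listed on day 30 only, close to the 58.6% of the whole day 30 list. A Foxa1 day 2 peak lay close by at some of them: 9 of the 97 had one within 1 kb, at gaps of 6 to 586 bp, and 4 of these were within 100 bp. At 46 (28.2%, 21.5 to 35.8%) Foxa1 was listed on both days, and at 2 on day 2 only. In the whole day 30 list these shares were 29.9% and 1.15%. Foxa1 had thus been listed on day 2 at 48 sites where Foxa2 was listed only on day 30. In the other direction, 9 Foxa2 day 2 peaks lay at sites where Foxa1 was listed on day 30 only, and 1 of these was 333 bp from a Foxa1 day 2 peak. The Foxa1 lists are the longer ones, with 442 and 3331 peaks. With each Foxa1 list reduced by score to 174 peaks, 42.9% of the gained peaks lay in one, and 90.9% of the kept day 30 peaks.

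**Figure D3:**
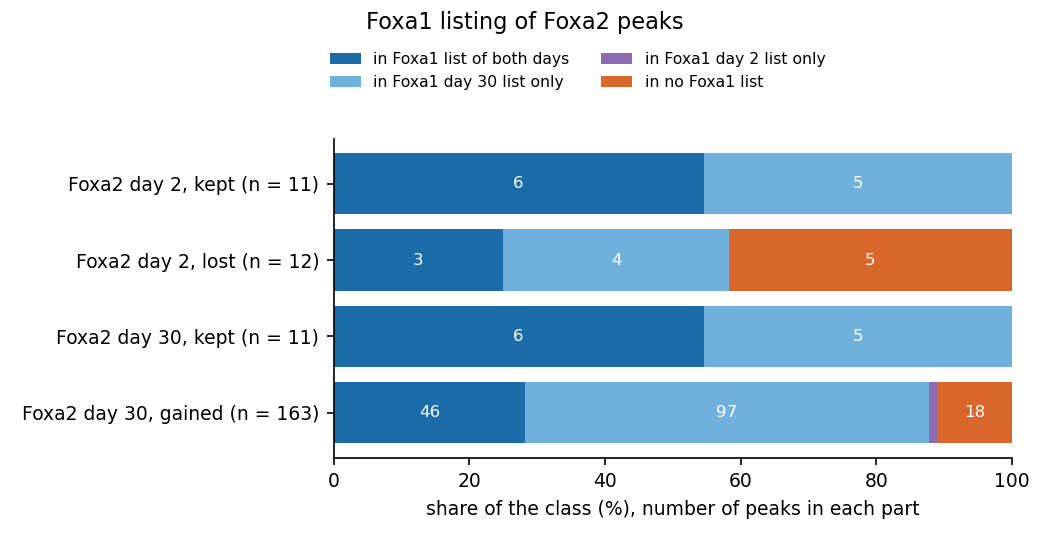
Share of each class of Foxa2 peaks (%) by the Foxa1 lists that hold them, with the number of peaks printed in each part; the thin unlabelled part of the lowest bar is the 2 peaks in the Foxa1 day 2 list only. Kept peaks have no part outside Foxa1, whereas 5 of 12 lost and 18 of 163 gained peaks do.

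The strongest gained peaks at Foxa1 sites were on chromosomes 14, 9, 2 and 17. The first, chr14:32475762-32475839, scored 18.7, with a Foxa1 day 30 score of 29.9. On chr9:25059773-25059990 the score was 16.7, that of 16 or more fragments, and the peak was 218 bp wide. On chr2:51928381-51928507 it was 15.3, and at both of these the Foxa1 day 30 score was 25. Foxa1 was not listed on day 2 at these 3 regions. Chromosome 9 also carried chr9:62939237-62939359 (15.0), where Foxa1 was listed on both days (22.4 and 53.5) and Foxa3 on day 30 (12.7).

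The gained peak chr17:35848722-35848867 scored 14.5 for Foxa2. It lies in the region with the highest Foxa1 score of day 30, 107, and a Foxa1 day 2 score of 67.6. So at the strongest late Foxa1 site, Foxa2 was listed on day 30 and not on day 2. A score of 14.0, that of 14 or more fragments, was shared by 3 further gained peaks at Foxa1 sites. A pair of them, chr11:101087613-101087712 and chr11:101163625-101163733, lie on 1 chromosome, and the other is chr6:47827675-47827770. Foxa1 was listed on day 30 only at all 3, with scores of 26.6, 24.5 and 18.5.

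Gained peaks were scattered over the genome, with few close neighbours. Chaining over gaps of up to 20 kb gave 7 groups with 15 of the 174 peaks, all of them gained and all in a Foxa1 list. A stretch on chromosome 19, chr19:41904413-41922797, held 3 peaks, and the other 6 groups held a pair each. In 4 groups, closely neighbouring peaks overlapped the same Foxa1 day 30 peak. They were 2 of the 3 peaks on chromosome 19 with a gap of 60 bp, chr9:62939237-62939492 with a gap of 71 bp, chr4:3734299-3734610 with 144 bp and chr3:113242522-113242967 with 164 bp. Whether such a pair is a single bound site was not tested. Joining peaks within 500 bp of each other left 170 day 30 peaks. The next pair lies on chromosome 7 (chr7:107682139-107685465), 3139 bp apart.

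Foxa3 was listed at fewer of the late sites than Foxa1, but its lists are shorter, with 146 and 265 peaks against 442 and 3331. The part of list length in this difference was not tested. Of the 163 gained peaks, 35 overlapped a Foxa3 peak (21.5%, 15.4 to 28.6%), close to the 22.4% of the whole day 30 list. All 35 were Foxa1 sites too. Foxa3 was listed at 15 of the 46 gained sites with Foxa1 on both days (32.6%, 19.5 to 48.0%) and at 20 of the 97 with Foxa1 on day 30 only (20.6%, 13.1 to 30%). These intervals overlap and cover counting error only, and the shares were not tested against each other. A gained peak on chromosome 7, chr7:122236381-122236477, was in both Foxa1 lists (10.3 and 25) and both Foxa3 lists (6.50 and 19.6). Among gained peaks it was the only one in the Foxa3 day 2 list. Its own Foxa2 score was low, 6.95.

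The Foxa1 peaks at Foxa2 sites were among the stronger Foxa1 peaks. The Foxa1 day 30 scores ran from 21.0 to 78.3 with a median of 31.4 at the 11 kept regions. At the 143 gained peaks in that list they ran from 7.53 to 107 with a median of 21.5, and at the 7 lost ones from 12.2 to 32.5 with a median of 17.9. The 3181 Foxa1 day 30 peaks without Foxa2 on day 30 had a median score of 10.2 and a median width of 118 bp, against 21.5 and 190 bp for the 150 with Foxa2. An overlap of 1 bp is met more easily by a wide peak, and the part of width in this difference was not tested. Of the 100 Foxa1 day 30 peaks with the highest scores, 43 overlapped a Foxa2 day 30 peak (33.1 to 53.3%) and 9 a Foxa2 day 2 peak (4.2 to 16.4%), against 4.50% and 0.540% of the whole Foxa1 list. Of the 442 Foxa1 day 2 peaks, 9 overlapped Foxa2 on day 2 (2.04%) and 54 on day 30 (12.2%).

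**Figure D4:**
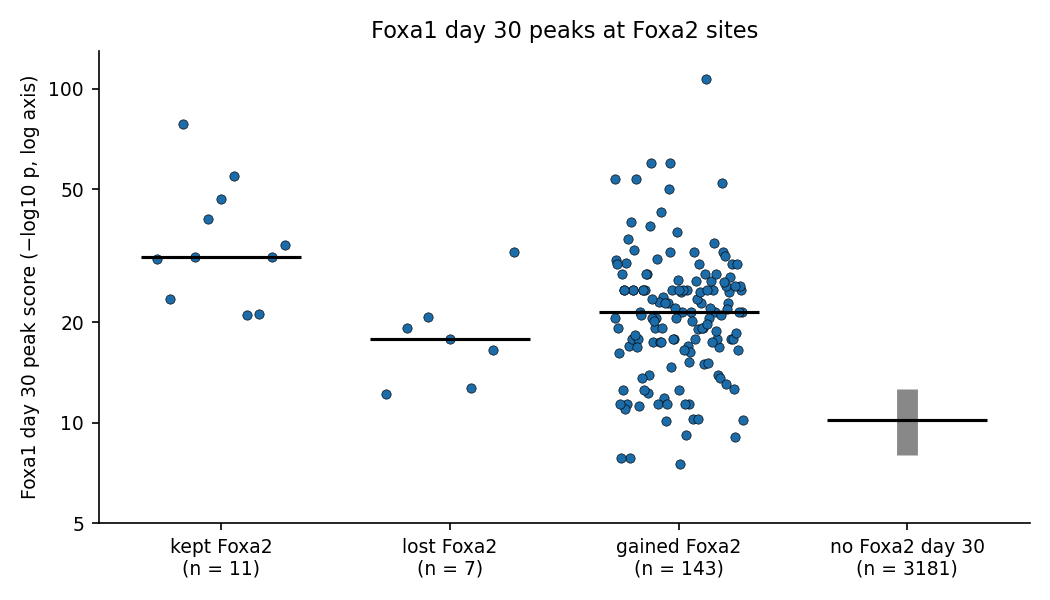
Foxa1 day 30 scores (−log10 p, log axis) of the Foxa1 peaks that overlap kept, lost and gained Foxa2 peaks; each point is 1 Foxa2 peak and lines are medians. The grey bar spans the middle 50% of the 3181 Foxa1 day 30 peaks without Foxa2 on day 30, whose median is 10.2, below the medians of 31.4, 17.9 and 21.5 of the 3 Foxa2 classes.

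Pairs of Foxa2 and Foxa1 peaks were chosen by overlap, which limits how far apart their centres can lie. At the 154 Foxa2 day 30 peaks with a Foxa1 day 30 peak, median widths were 82 bp for Foxa2 and 194 bp for Foxa1. The centres were a median of 26.2 bp apart, and 115 pairs were within 50 bp. The Foxa1 peak was the wider one at 142 of them, and 113 Foxa2 peaks lay wholly inside it. The median distance was 16.5 bp for the kept and 27 bp for the gained peaks of day 30. For the 18 day 2 peaks at Foxa1 day 30 sites it was 15.5 bp at the 11 kept and 55 bp at the 7 lost. The Foxa1 peaks there had median widths of 166 and 294 bp, and the part of width was not tested.

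The 18 gained peaks in no Foxa1 list (11.0% of gained, 6.68 to 16.9%) included some of the highest scores of day 30. None of the 18 overlapped Foxa3 (exact upper limit 18.5%), against 22.4% of the whole day 30 list. All 39 day 30 peaks with Foxa3 were in a Foxa1 list, so this absence follows from how the 18 were chosen. The 18 fell into 7 with scores of 13.2 and above and 11 with scores of 8.78 and below. Peaks chr4:28264149-28264218 and chr7:15005999-15006069 shared a score of 19.6, that of 18 or more fragments, at widths of 70 and 71 bp, and were in no other list. The nearest Foxa1 day 30 peaks were 709967 and 1889323 bp away. Another such peak, chr14:38223627-38223703, scored 13.2 at 77 bp.

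The remaining 4 of the 7 high-scoring peaks were Hnf4a day 2 sites. They were chr12:45166376-45166448 (Foxa2 score 15.3, Hnf4a day 2 score 21.2), chrX:159521401-159521470 (15.0 and 17.6), chr14:15950729-15950799 (14.0 and 19.1) and chr2:23657183-23657242 (14.0 and 16.8). All 4 were gained and lay outside the Foxa1, Foxa3 and Hnf4a day 30 lists. Their number is 2.30% of the Foxa2 day 30 list, and of the 10 peaks in the Hnf4a day 2 list it is 40% (12.2 to 73.8%). The 4 are also the highest-scoring Hnf4a day 2 peaks, as the 6 others scored from 7.53 to 15.4. No Hnf4a day 2 peak overlapped any list other than Foxa2 day 30, and no Foxa2 peak of either day overlapped Hnf4a on day 30 (0 of 174 on day 30, exact upper limit 2.1%). This overlap was noticed after the values were seen, and it joins libraries of different factors and days.

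These peaks were narrow for their scores, though not alone in this. The shortest day 30 peak was 60 bp, a width shared by 33 peaks. Among the 20 highest-scoring day 30 peaks, the 6 in no Foxa1 list were 60 to 73 bp wide, and the 14 in a Foxa1 list were 72 to 365 bp wide with a median of 125 bp. Of these 14, 3 were at most 78 bp wide, so the widths do not separate the 2 sets. Below these 20, chr14:38223627-38223703, also in no Foxa1 list, was 77 bp wide. The lost day 2 peak on chromosome 6, with 21.4 at 62 bp, was also narrow for its score, in a list whose shortest peak was 57 bp. The Hnf4a day 2 peaks at the 4 shared sites were 57 to 74 bp wide.

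**Figure D5:**
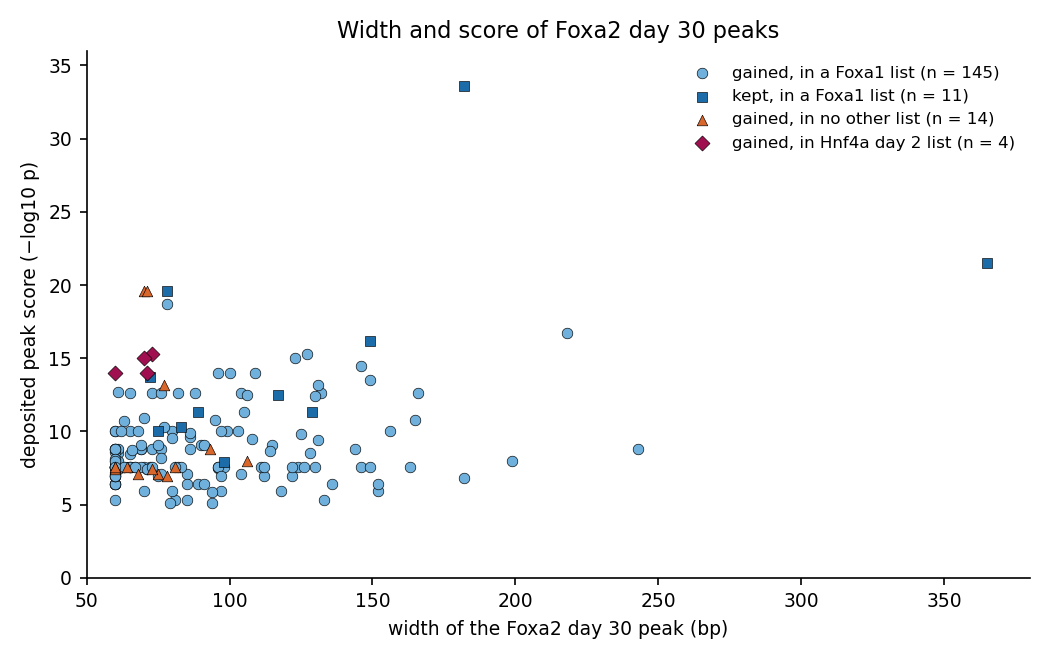
Width (bp) against deposited score (−log10 p) of the 174 Foxa2 day 30 peaks, marked by class and by other lists. The kept peaks spread from 72 to 365 bp, whereas the 4 peaks shared with Hnf4a day 2 and the 2 peaks of score 19.6 in no other list stand together at the left, at 60 to 73 bp. Peaks in a Foxa1 list also reach into that range of widths.

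The 11 low-scoring gained peaks outside Foxa1 did not stand apart in width, at 60 to 106 bp. The highest of them were chr1:34063331-34063423 (8.78) and chr19:45121842-45121947 (8.0). At 7.58, the commonest score of the list, followed chr8:96788742-96788801, chr14:59486228-59486287 and chr17:33855881-33855944. Of all 18 peaks, 1 had a Foxa1 peak of either day within 1 kb. Without the 4 Hnf4a day 2 sites, the share of gained peaks in a Foxa1 list was 91.2% of 159.

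Foxa2 peaks were also placed against regions where peaks of all lists pile up. A single gained peak, at a Foxa1 site, and none of the early peaks lay in a block of 10 or more peaks chained over gaps of up to 20 kb. This is 0.575% of the day 30 list and 0% of the day 2 list. The share of all deposited peaks in such blocks is not given here, so these shares have no measure beside them. On the X chromosome there were 2 late peaks, a Foxa1 site and 1 of the 4 sites shared with Hnf4a, and no early peak. The early peaks covered 2251 bp in all and the late peaks 16045 bp.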

How the data were processed

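The submitters' processing notes name MACS2 2.1.0, BWA 0.6.2, the mouse build mm9 and bedtools 2.16.2, and the peak threshold and the use of the inputs are not given in the sources used here. The authors deposited 8 peak lists, 1 per ChIP sample, each with a score read from its values as −log10 of a p-value. The 8 input samples were not used. Groups came from the sample titles. Python 3.11.15 with NumPy 2.4.6, pandas 2.3.3 and SciPy 1.17.1 was used, and Matplotlib 3.10.9 for the figures.

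Peaks sharing at least 1 bp were counted as overlapping, and where several overlapped, the highest score is given. Counts and the fit of scores to Poisson tails were tested on simulated data. Read depth is unknown. The gene annotation at hand is of another build, so the planned nearest genes, gene lists and forkhead words were not run. The regions, lists and comparisons were chosen with earlier results of these data known. Named regions followed a rule: all day 2 peaks, the 10 highest-scoring gained peaks, the 10 highest in no Foxa1 list (ties included in both), the 5 in the most lists and the 5 largest groups of neighbouring peaks. The overlap with Hnf4a day 2 fell under it.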

Additional observations from a re-analysis of the deposited data

How the results depend on the processing

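Of 57 recomputed values, 48 stayed within the counting interval of the value in the text. They include every value with an overlap of 50% of the shorter peak, with centres within 500 bp, after leaving out dense blocks, and after joining peaks up to 500 bp apart. Intervals over 11 to 23 peaks are wide, so a value can shift and still stay within one. For lost peaks in a Foxa1 list, 58.3% became 72.7% with centres within 500 bp and counted as staying. Some recomputed shares rest on 2 peaks. The values that left their interval moved as follows. With the day 30 list reduced by score to 23 peaks, 21.7% of day 2 peaks were kept and 21.7% of day 30 peaks had been listed before. With a score of at least 10 in the Foxa2 list alone, 18.5% of day 30 peaks had been listed on day 2, and with that threshold in both lists the ratio of counts was 13.5, from 54 against 4 peaks (4.98 to 51.3). That threshold admits a reading of 11 or more fragments on day 30 (10.03) and not on day 2 (9.85). With each Foxa1 list reduced to the length of the Foxa2 list, the shares in Foxa1 were 36.4% of kept and 0% of lost day 2 peaks, and 42.9% of gained day 30 peaks. With the Foxa1 list of the same day only, 54.5% of kept and 25% of lost day 2 peaks lay in it. The cause of these moves was not tested. Settings chosen after the data were seen were edges up to 100 bp apart, which gave 52.2% kept, and leaving out the Hnf4a day 2 sites. No paired analysis was possible because each factor and day had 1 ChIP sample. Unknown depth and few fragments per peak limit all shares, most of all those over 11 or 12 peaks.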
